A study of Homo sapiens with 6 samples.

Results

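The genes described here encode the subunits, activators and assembly chaperones of the proteasome, and were followed in A549 cells after knock-down of KMT9α, the catalytic subunit of the heterodimeric methyltransferase KMT9. They were picked out by gene symbol, as all symbols of the families PSMA, PSMB, PSMC, PSMD, PSME, PSMF and PSMG except the interferon-inducible subunits PSMB8, PSMB9 and PSMB10, with 1 transcript kept for each symbol. The set itself was chosen with earlier results of these data known. The rule found 45 of the 23180 symbols counted, and 43 of these passed the filter on low counts and were tested among 13877 genes. A549 is an established human lung adenocarcinoma cell line. The cells, at passage 11 and of wild-type genotype by their labels, were transfected with a control siRNA (siControl, n = 3) or an siRNA against KMT9α (siKMT9a, n = 3), and harvested 3 days after transfection for RNA sequencing. A single cell line and, per the study's text, a single siRNA entered the RNA sequencing, so an effect of that siRNA on other transcripts cannot be told apart from that of KMT9α. The labels call the samples biological replicates, without saying whether they were separate cultures or transfections, and p-values measure the spread between these samples.

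The proteasome is the large protease that degrades most short-lived and misfolded proteins, which reach it tagged with ubiquitin chains. Its barrel, the 20S core, is built from outer alpha rings, which gate the entrance, and inner beta rings, which hold the catalytic sites. The 19S regulatory particle caps the barrel: its base contains a ring of ATPases that unfold substrates and push them into the core, and its lid removes the ubiquitin. Because each subunit has a fixed number of copies per particle, synthesis of the subunits is known to be coordinated, with NFE2L1 (NRF1) as the factor that raises proteasome genes together when proteasome activity is short.

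Library totals over 1 transcript per symbol ran from 15551778 to 18568639.5 counts for siControl and from 13740097 to 19832395.5 for siKMT9a. N6AMT1, the gene of KMT9α, was measured at 10.2, 10.9 and 11.4 counts-per-million (CPM, scaled with the trimmed mean of M values, TMM) in siControl and at 2.87, 3.22 and 3.35 CPM in siKMT9a, a log2 fold change of -1.77 ± 0.12 (SE). All 5 epithelial markers were detected, CDKN2A, which A549 lacks, was at 0, and the epithelial markers summed to between 3214 and 3576 CPM in siControl and to between 1725 and 1816 CPM in siKMT9a. EPCAM (log2 fold change -2.76), KRT8 (-1.28), KRT18 (-0.75) and KRT19 (-0.68) were lower, and CDH1 (1.34) was higher. KRT8 (mean 1281 CPM in siControl) and KRT18 (2041 CPM) made up most of the sum, while EPCAM (3.85 CPM) and CDH1 (3.38 CPM) were low. The sum of genes known to be high in this line (AKR1B10, AKR1C1, ALDH1A1 and NQO1) was between 4428 and 4676 CPM in siControl. In siKMT9a it was between 4550 and 4710 CPM. These near-equal sums held opposite changes: AKR1C1 (-2.30), AKR1B10 (-1.22) and NQO1 (-0.11) were lower and ALDH1A1 (0.70) was higher. The leukocyte, endothelial and fibroblast lists each stayed under 9 CPM in sum in every sample, with CD3E (leukocyte) and COL1A2 (fibroblast) at 0. Of these lists CD79A, CD14, COL1A1 and LUM were tested, with means between 3.14 and 4.28 CPM in siControl, a level like that of EPCAM and CDH1. They were lower in siKMT9a, at log2 fold changes of -2.265, -0.86, -0.61 and -3.45. The part of these lists in the results below was not tested.

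Proteasome genes moved in both directions and by small amounts after KMT9α knock-down. At an adjusted p under 0.05 in edgeR's quasi-likelihood test, 13 of the 43 genes were higher in siKMT9a, 18 were lower and 12 did not pass. Over all genes tested, 37.1% passed as higher and 38.5% as lower, beside 30.2% and 41.9% of the proteasome genes, so these shares lay near the background. Under the threshold the study set, an unadjusted p under 1e-08 with an absolute log2 fold change above 0.26, 5 genes were higher (PSMA7, PSMB1, PSMD2, PSME2 and PSMG2) and 4 were lower (PSMC2, PSMC4, PSMD4 and PSMD10), where the background was 13.5% and 10.7%. The CPM of the 2 groups did not overlap for 14 genes that were higher and 19 that were lower, against 37.6% and 39.4% of all genes. The median log2 fold change of the 43 genes was -0.07, and that of all genes was -0.01.

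Sizes differed more from the rest of the transcriptome than counts did. The median absolute log2 fold change was 0.23 for the proteasome genes and 0.47 for all genes, and 34 of the 43 lay within the interquartile range of all genes, from -0.49 to 0.46. The extremes were -0.63 for PSMD4 and 0.70 for PSMA7. No proteasome gene was among the lowest 10% of all genes, which ended at -1.02. The proteasome genes are also among the strongly expressed ones: in siControl all 43 lay above the median level of 7.53 CPM per kilobase of transcript, and 29 were in the top 10%, above 64.0 CPM per kilobase. Their median SE of 0.05 on the log2 scale compares with 0.08 for all genes, so that small differences could pass the test.

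**Figure D1:**
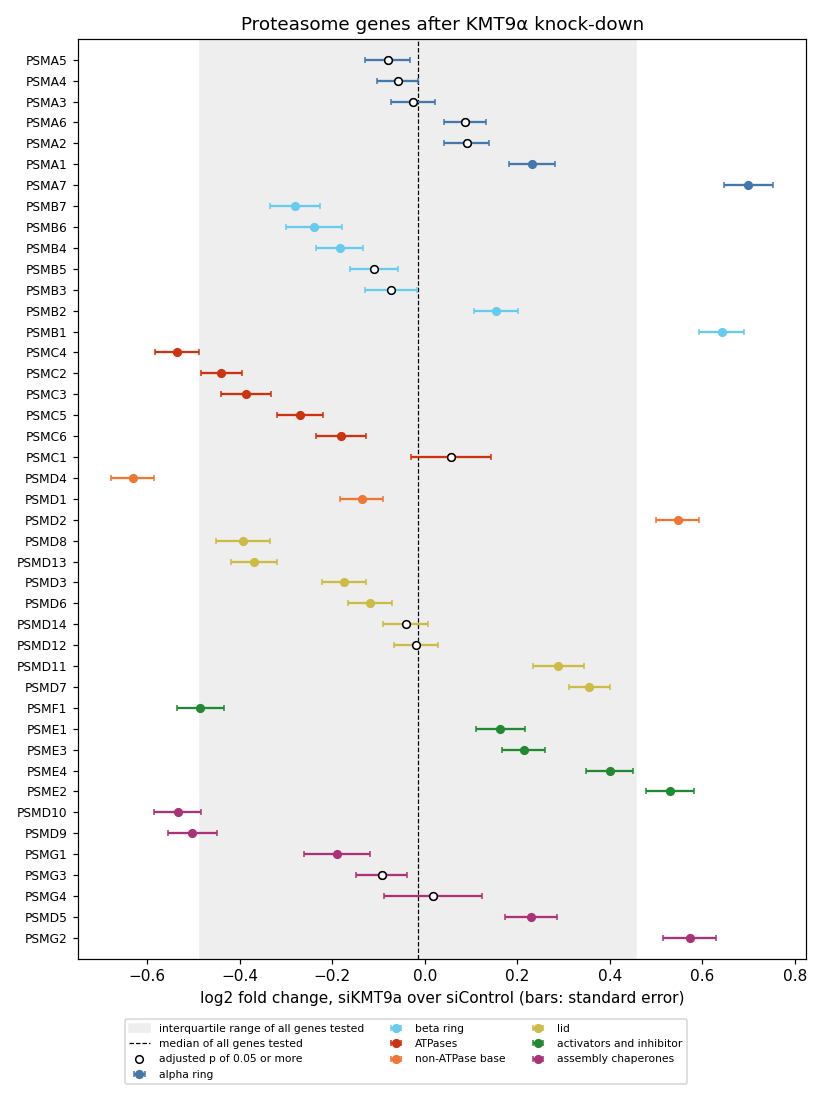
Log2 fold change of siKMT9a over siControl (x axis) for each of the 43 proteasome genes tested (y axis), coloured by functional group, with standard errors as bars. White points did not pass an adjusted p of 0.05, the dashed line is the median of all genes tested (-0.01) and the grey band their interquartile range (-0.49 to 0.46). The ATPases other than PSMC1 sit left of the median, the alpha ring around it, and PSMA7 (0.70) and PSMD4 (-0.63) at the ends.

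In the alpha ring, 2 of the 7 genes tested rose, none fell and 5 did not pass, with a median log2 fold change of 0.09. Over all genes, 37.1% passed as higher and 38.5% as lower. PSMA7 (hg19 chr20:60711791-60718474, minus strand) had the largest rise of the 43 genes. It was measured at 221, 229 and 238 CPM in siControl and at 387, 387 and 344 CPM in siKMT9a. The lowest siKMT9a sample was well above the highest siControl sample. The log2 fold change was 0.70 ± 0.05 (SE, adjusted p = 5.11e-10). PSMA1 also rose, by 0.23 on the log2 scale (SE 0.05, adjusted p = 0.000317), from between 119 and 123 CPM to between 138 and 152 CPM. The other 5 genes, PSMA2 to PSMA6, had log2 fold changes between -0.08 and 0.09. PSMA5, the lowest of them, was measured at 176, 173 and 165 CPM in siControl and at 167, 163 and 156 CPM in siKMT9a, and the groups overlapped. With an adjustment for transcript length and GC content, PSMA2 (0.34), PSMA3 (0.23), PSMA4 (0.20) and PSMA6 (0.30) passed as higher. PSMA5 (-0.07) still did not pass. PSMA8, the testis form of the subunit that PSMA7 encodes, had a count of 0 in all 6 samples. The 3 counts that a count of 0 allows correspond to between 0.156 and 0.227 CPM, and like other such limits this covers counting error only.

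Of the 7 beta ring genes tested, 2 rose, 3 fell and 2 did not pass, with a median of -0.11. These counts were near those of all genes (37.1% higher and 38.5% lower). PSMB1 (hg19 chr6:170844204-170862417, minus strand), a non-catalytic subunit, was measured at 98.9, 102 and 106 CPM in siControl and at 162, 163 and 154 CPM in siKMT9a. Its groups were far apart relative to their spread, and the log2 fold change was 0.64 ± 0.05 (SE, adjusted p = 4.69e-10). PSMB2, another non-catalytic subunit, rose by 0.15 (SE 0.05, adjusted p = 0.00709), but its value was 0.05 when libraries were scaled by size alone, and with an adjustment for transcript length and GC content it was -0.01.

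All 3 constitutive catalytic genes had negative values. PSMB7, which carries the trypsin-like site, was measured at 385, 407 and 413 CPM in siControl and at 350.4, 339 and 303 CPM in siKMT9a. The groups did not overlap, and the log2 fold change was -0.28 ± 0.05 (SE, adjusted p = 0.000129). PSMB6, which carries the caspase-like site, was measured at 269.8, 287 and 292 CPM in siControl and at 259, 248 and 214 CPM in siKMT9a. These groups too were apart, though by less, and the log2 fold change was -0.24 ± 0.06 (SE, adjusted p = 0.00144). PSMB5, which carries the chymotrypsin-like site and is the main target of proteasome inhibitors such as bortezomib, was measured at 303, 324 and 311 CPM in siControl and at 301, 298 and 269 CPM in siKMT9a. The highest siKMT9a sample lay just under the lowest siControl sample. Its log2 fold change of -0.11 ± 0.05 (SE) did not pass the test (adjusted p = 0.0607). In each of these 3 genes, siKMT9a replicate 3 was the lowest sample, and without it the log2 fold changes were -0.22 for PSMB7, -0.16 for PSMB6 and -0.06 for PSMB5. After the adjustment for transcript length and GC content none of the 3 passed, at log2 fold changes of -0.08, -0.02 and 0.07. PSMB4 fell by 0.18 on the log2 scale, a value that became 0.01 after the same adjustment, and PSMB3, at -0.07, did not pass. PSMB11, the subunit found in the thymus, had a count of 0 in all samples.

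The ATPases mostly moved one way. Of 6 genes, 5 fell, none rose and PSMC1 did not pass, with a median of -0.33. Over all genes, 38.5% passed as lower and 37.1% as higher. PSMC4 (hg19 chr19:40477073-40487353, plus strand) was measured at 492, 501 and 509 CPM in siControl and at 354, 353 and 329 CPM in siKMT9a. The siKMT9a values were all far below the lowest siControl value, and the log2 fold change was -0.54 ± 0.05 (SE, adjusted p = 4.91e-09). PSMC2 followed at -0.44, PSMC3 at -0.39, PSMC5 at -0.27 and PSMC6 at -0.18, all with groups that did not overlap. PSMC1 was by far the lowest of the ATPase genes, at 18.1, 16.2 and 18.7 CPM in siControl and 19.4, 19.6 and 16.7 CPM in siKMT9a. Its log2 fold change was 0.06 ± 0.09 (SE, adjusted p = 0.563). The annotation names 13 pseudogenes of PSMC1, more than of any other gene of the set, so its reads may have been divided among near-identical copies and its value is uncertain. After the adjustment for transcript length and GC content, PSMC2, PSMC3 and PSMC4 still passed as lower, while PSMC5 (-0.08) and PSMC6 (0.07) did not pass and PSMC1 passed as higher (0.19).

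The 3 non-ATPase subunits of the base held both a strong rise and the strongest fall. PSMD4 (hg19 chr1:151227197-151239954, plus strand), a ubiquitin receptor, was measured at 222, 227 and 228 CPM in siControl and at 148, 148 and 141 CPM in siKMT9a. Its groups were separated by many times their spread, and the log2 fold change was -0.63 ± 0.05 (SE, adjusted p = 3.11e-10). PSMD2 (hg19 chr3:184017022-184026840, plus strand), a scaffold that binds ubiquitin-like domains of shuttle factors, moved the other way, from 176, 178 and 182 CPM to 267.5, 265 and 251.2 CPM. Its log2 fold change was 0.55 ± 0.05 (SE, adjusted p = 2.69e-09). The CPM of PSMD2 divided by that of PSMD4 within each sample, a ratio that does not depend on the scaling between samples, was between 0.782 and 0.798 in siControl and between 1.79 and 1.80 in siKMT9a. This pair was chosen after its values were seen and is given without a test. PSMD1, the larger scaffold of the base, had a log2 fold change of -0.14 (SE 0.05, adjusted p = 0.0127). That call was lost when siControl replicate 1 (-0.09), siControl replicate 3 (-0.13) or siKMT9a replicate 1 (-0.13) was left out.

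Among the 8 lid subunits, 2 rose, 4 fell and 2 did not pass, with a median of -0.08. The shares of all genes were 37.1% higher and 38.5% lower. PSMD7, the partner of the deubiquitinase subunit, rose. It was measured at 256, 261 and 260.5 CPM in siControl and at 332, 333 and 329 CPM in siKMT9a, with a log2 fold change of 0.36 ± 0.04 (SE, adjusted p = 5.93e-07). PSMD8 fell, from 492, 551 and 534 CPM to 426, 409 and 366 CPM, with a log2 fold change of -0.39 ± 0.06 (SE, adjusted p = 5.07e-06). The groups overlapped for neither gene. PSMD14, the metalloprotease that cuts ubiquitin chains from substrates, was measured at 338, 337 and 319 CPM in siControl and at 327, 333 and 306.5 CPM in siKMT9a. These groups overlapped, and the log2 fold change of -0.04 ± 0.05 (SE) did not pass (adjusted p = 0.455). Among the other lid genes, PSMD11 rose by 0.29, PSMD13 fell by 0.37 and PSMD3 by 0.17 on the log2 scale (-0.01 with length and GC content adjusted for), and PSMD12, at -0.02, did not pass. PSMD6 (-0.12, adjusted p = 0.0295) passed in the main test but was not called lower in 12 of the 16 alternative settings. Among these, it passed in the opposite direction, as higher, after the length and GC adjustment, without or with a replicate block (0.12 each).

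**Figure D2:**
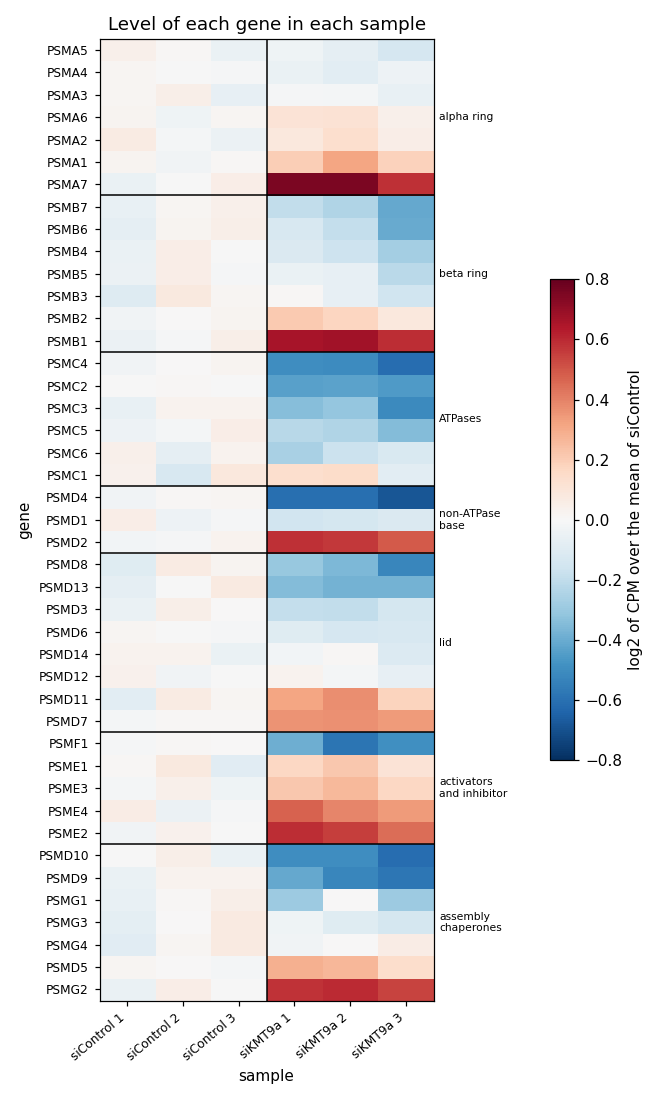
Log2 of the CPM of each proteasome gene in each of the 6 samples over the mean of the siControl samples (colour), with genes in rows by functional group and samples in columns. The siControl columns are nearly blank, and the siKMT9a columns share the same red genes (PSMA7, PSMB1, PSMD2, PSME2, PSMG2) and blue genes (PSMC4, PSMD4, PSMD10) in all 3 replicates.

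Genes of the alternative caps were higher, and that of the inhibitor was lower. All 4 activator genes passed as higher, where 37.1% of all genes did. PSME1 and PSME2 encode the subunits of the interferon-inducible 11S activator, PSME3 its nuclear counterpart, and PSME4 the single-chain activator PA200. PSME2 was measured at 69.2, 72.6 and 70.5 CPM in siControl and at 107, 104 and 96.6 CPM in siKMT9a, with a log2 fold change of 0.53 ± 0.05 (SE, adjusted p = 2.04e-08). PSME1 was measured at 94.2, 98.8 and 87.9 CPM in siControl and at 105, 109 and 101 CPM in siKMT9a. The groups were close but did not overlap, and the log2 fold change was 0.16 ± 0.05 (SE, adjusted p = 0.00959). With library size alone PSME1 was at 0.06 and did not pass, and the call was lost without siControl replicate 3 (0.13) or siKMT9a replicate 2 (0.14). PSME4 was measured at 126, 117 and 119.8 CPM in siControl and at 167, 158 and 153 CPM in siKMT9a, with a log2 fold change of 0.40 ± 0.05 (SE, adjusted p = 7.00e-07). PSME3 was measured at 246, 256 and 243 CPM in siControl and at 289, 297 and 278 CPM in siKMT9a, with a log2 fold change of 0.21 ± 0.05 (SE, adjusted p = 0.000428). In both genes the lowest siKMT9a sample exceeded the highest siControl sample.

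PSMF1, whose product PI31 inhibits the isolated core in vitro, was measured at 191, 194 and 193 CPM in siControl and at 147, 129 and 137 CPM in siKMT9a. It was lower in all 3 siKMT9a samples, with a log2 fold change of -0.48 ± 0.05 (SE, adjusted p = 6.29e-08).

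The assembly chaperones, which are needed to build the particle and are not part of the finished enzyme, had 2 of 7 genes higher, 3 lower and 2 that did not pass, near the 37.1% and 38.5% of all genes. PSMG1 and PSMG2 form one dimer that guides assembly of the alpha ring. PSMG2 was measured at 33.6, 36.2 and 34.8 CPM in siControl and at 52.2, 52.7 and 50.7 CPM in siKMT9a, with a log2 fold change of 0.57 ± 0.06 (SE, adjusted p = 3.04e-08). Its partner PSMG1 was measured at 50.8, 53.2 and 54.5 CPM in siControl and at 43.2, 53.1 and 43.2 CPM in siKMT9a. Here siKMT9a replicate 2 lay within the siControl range, and the log2 fold change was -0.19 ± 0.07 (SE, adjusted p = 0.0215). This call was lost in 8 of the 16 alternatives: without siControl replicate 2 (-0.18) or 3 (-0.15), without siKMT9a replicate 1 (-0.14) or 3 (-0.13), with DESeq2 (-0.18, adjusted p = 0.0552), with summed transcripts (-0.16), and with the length and GC adjustment alone or with a replicate block (-0.03 each). Without siKMT9a replicate 2 the value was -0.29. PSMG3 and PSMG4 form the other dimer, and neither passed. PSMG3 was measured at 71.6, 75.8 and 79.5 CPM in siControl and at 73.8, 70.8 and 68.5 CPM in siKMT9a, a log2 fold change of -0.09 ± 0.05 (SE, adjusted p = 0.127). PSMG4, the least expressed gene of the set, was measured at 7.54, 8.09 and 8.42 CPM in siControl and at 7.86, 8.04 and 8.37 CPM in siKMT9a. Its groups overlapped fully, and the log2 fold change was 0.02 ± 0.11 (SE, adjusted p = 0.887).

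The remaining chaperones, PSMD5, PSMD9 and PSMD10, escort modules of the ATPase ring during its assembly. PSMD10, also known as gankyrin, was measured at 129, 134 and 125 CPM in siControl and at 91.3, 91.6 and 84.7 CPM in siKMT9a. The log2 fold change was -0.53 ± 0.05 (SE, adjusted p = 1.29e-08). PSMD9 was measured at 113, 119 and 119 CPM in siControl and at 88.3, 81.9 and 78.7 CPM in siKMT9a, with a log2 fold change of -0.50 ± 0.05 (SE, adjusted p = 5.34e-08). The 2 genes fell by like amounts, and their groups were well apart. PSMD5 was instead higher, from 50.2, 49.8 and 49.1 CPM to 60.6, 59.7 and 54.9 CPM, with a log2 fold change of 0.23 ± 0.06 (SE, adjusted p = 0.00113). It was at 0.12 and did not pass when libraries were scaled by their size alone.

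Opposite movements within one functional group were therefore seen outside the alpha ring and the ATPases. For the gene with the highest and the gene with the lowest log2 fold change in each group, chosen after their values were seen, the within-sample ratio of CPM was compared without a test. In the beta ring, PSMB1 over PSMB7 was between 0.250 and 0.257 in siControl and between 0.461 and 0.507 in siKMT9a. In the lid, PSMD7 over PSMD8 was between 0.474 and 0.520 and then between 0.780 and 0.898. Among activators and inhibitor, PSME2 over PSMF1 was between 0.362 and 0.375 and then between 0.704 and 0.806. Among the chaperones, PSMG2 over PSMD10 was between 0.26 and 0.279 and then between 0.572 and 0.598. These ratios are not corrected for transcript length, so that only their change between samples can be read.

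The core and the regulatory particle were also compared by summing the CPM of their genes in each sample. The 14 genes of the 20S core counted summed to 2862, 2942 and 2931 CPM in siControl and to 3086, 3054 and 2828 CPM in siKMT9a, and the groups overlapped. The 17 genes of the 19S particle summed to 3614, 3713 and 3713 CPM in siControl and to 3325, 3314 and 3137 CPM in siKMT9a, without overlap and at a ratio of the means of 0.885. Within each sample, the 19S sum divided by the 20S sum was 1.263, 1.262 and 1.267 in siControl and 1.077, 1.085 and 1.109 in siKMT9a. The ATPases contributed most to this difference: they summed to 1262 ± 21.7 CPM (SD, n = 3) in siControl and 948 ± 34.0 CPM (SD, n = 3) in siKMT9a, a ratio of 0.751. The alpha ring summed to 1294 ± 11.4 CPM and 1464 ± 45.4 CPM (SD, n = 3 each), a ratio of 1.13. By genes called, 4 of the 14 core genes rose and 3 fell, whereas 3 of the 17 genes of the 19S particle rose and 11 fell, beside the 37.1% and 38.5% of all genes. The median log2 fold changes were -0.04 and -0.17. RNA levels per cell were not measured, so that sums are relative to the other transcripts of each library.

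**Figure D3:**
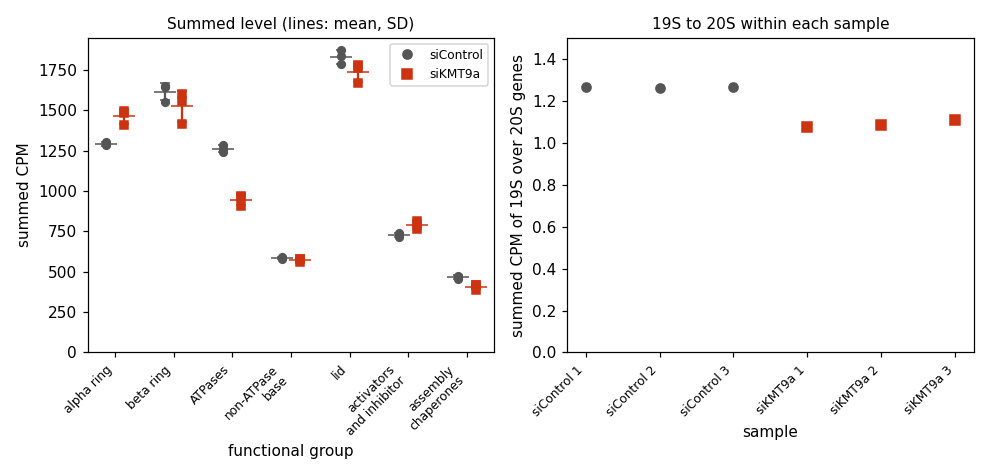
Left, summed CPM (y axis) of the genes of each functional group (x axis) in each siControl sample (grey circles) and siKMT9a sample (red squares), with lines for the mean and SD of 3 samples. Right, summed CPM of the 19S genes over that of the 20S genes in each sample: the 3 siControl samples lie between 1.262 and 1.267 and the 3 siKMT9a samples between 1.077 and 1.109.

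The zero line between rise and fall depended on how the libraries were scaled, because the changes were small. TMM factors were between 1.033 and 1.042 for siControl and between 0.9635 and 0.9645 for siKMT9a. With library size alone, which moved the median of all genes by -0.11, 10 proteasome genes were higher and 26 lower. Of all 13877 genes tested, 4359 were then higher and 6212 lower. Transcript length also moved with the change. The median length of the proteasome transcripts was 1449 bases and that of all transcripts tested was 2922 bases, and the median log2 fold change of all genes was -0.17 for those of up to 1000 bases, -0.21 between 1000 and 1500 bases and 0.23 above 5000 bases. With per-sample offsets for length and GC content, 22 proteasome genes were higher and 10 lower, in place of 13 and 18. Of the 13709 genes tested with these offsets, 5313 were higher and 5217 lower. Among genes that kept their call, this adjustment moved PSMA1 from 0.23 to 0.40, PSME1 from 0.16 to 0.37 and ADRM1, a ubiquitin receptor of the base, from 0.27 to 0.55. It also moved PSMC4 from -0.54 to -0.32, PSMC3 from -0.39 to -0.18, PSMD8 from -0.39 to -0.16, PSMD13 from -0.37 to -0.24, PSMD10 from -0.53 to -0.31, and POMP, the maturation factor of the core, from -0.45 to -0.14. PSME4, whose transcript of 7006 bases is the longest of the 43, went from 0.40 to 0.13. The part of length in the changes of single genes was not tested beyond this adjustment.

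Differences between groups were compared over the same settings for 2 pairs. The median of the ATPases minus that of the alpha ring was -0.42, and it stayed between -0.45 and -0.37 over the main fit and its 16 alternatives. The median of the 19S genes minus that of the 20S genes was -0.13, within a range of -0.17 to -0.10. A shift shared by all genes cancels in such a difference. Settings that only rescale the libraries therefore could not move it, and its steadiness over those settings shows nothing. The order of other groups did change: after the length and GC adjustment the non-ATPase base (-0.16) lay below the ATPases (-0.13), and the alpha ring (0.30) and the chaperones (0.17) lay above activators and inhibitor (0.16). In all 17 fits, 10 genes were called higher: PSMA1, PSMA7, PSMB1, PSMD2, PSMD7, PSMD11, PSME2, PSME3, PSME4 and PSMG2. Likewise 9 genes were called lower in all of them: PSMC2, PSMC3, PSMC4, PSMD4, PSMD8, PSMD9, PSMD10, PSMD13 and PSMF1. Of 20 genes with more than 1 transcript in the fit of all transcripts, 19 had transcripts whose log2 fold changes differed by less than 0.1, but transcripts of a gene share most of their reads. PSMG4 was the exception, with values from -0.19 to 0.05.

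**Figure D4:**
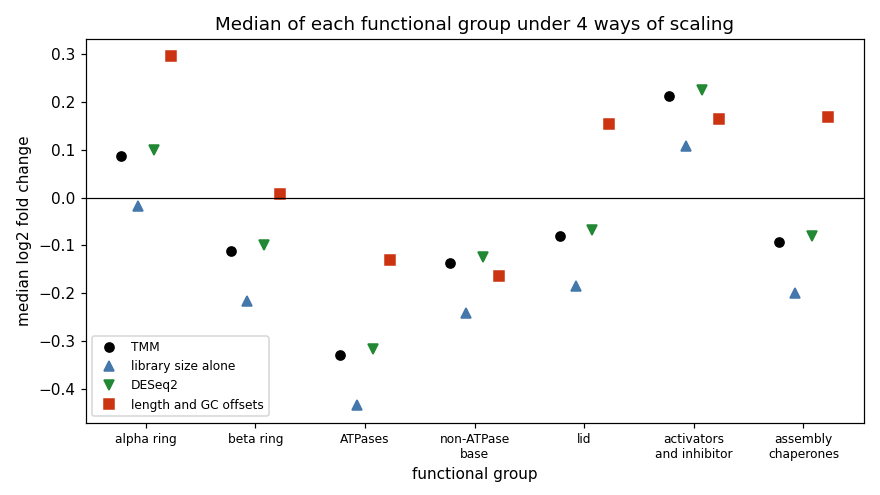
Median log2 fold change (y axis) of each functional group (x axis) with TMM scaling, library size alone, DESeq2 and offsets for length and GC content. The settings move the groups up or down, offsets by unequal amounts, and the ATPases lie below the alpha ring under each of the 4 (-0.33 and 0.09 with TMM). A shift shared by all groups cannot change their order.

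Levels per transcript length showed that subunits present in equal numbers in the particle were not equal in RNA. In siControl, the 20S genes ran from 35.4 CPM per kilobase for PSMB2 to 414 CPM per kilobase for PSMB7, an 11.7-fold range. The long annotated transcript of PSMB2 (4732 bases) enters this value. The median level was 160 CPM per kilobase for the alpha ring, 228 for the beta ring, 111 for the ATPases, 99.4 for the lid, 78.8 for activators and inhibitor and 47.4 for the chaperones. Among the ATPases, PSMC4 was highest at 354 CPM per kilobase and PSMC1 lowest at 11.3.

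**Figure D5:**
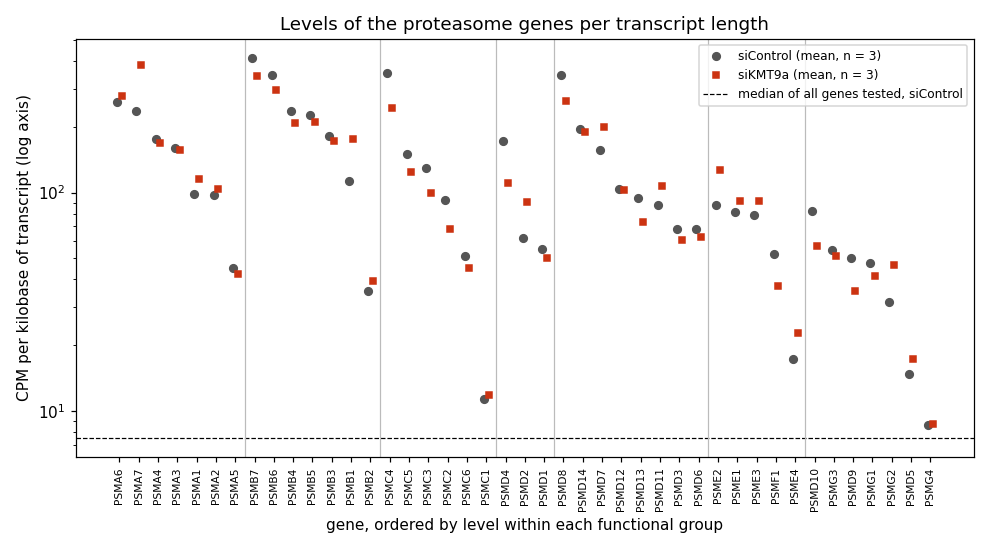
Mean CPM per kilobase of transcript (y axis, log scale) of each proteasome gene (x axis) in siControl (grey circles) and siKMT9a (red squares), n = 3 each, ordered within functional groups that are divided by vertical lines. All genes lie above the dashed median of all genes tested (7.53), and PSMB7 is the highest (414 in siControl).

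Interferon-inducible subunits replace the catalytic ones in the immunoproteasome, and their genes were low in these cells. As a percentage of the CPM of its constitutive counterpart, PSMB8 was at 3.99% of PSMB5 in siControl and at 4.33% in siKMT9a, PSMB9 at 1.35% and 1.26% of PSMB6, and PSMB10 at 4.71% and 4.58% of PSMB7. The log2 ratios differed by 0.12, -0.10 and -0.04, with overlapping groups (exact two-sided permutation tests, p = 0.4, 0.7 and 0.7, each 0.7 after Benjamini-Hochberg adjustment over the 3 ratios). With 3 samples against 3, such a test cannot go below 0.1. As single genes, PSMB8 was at 11.8, 13.1 and 12.4 CPM in siControl and at 11.5, 13.3 and 12.8 CPM in siKMT9a (log2 fold change 0.02, adjusted p = 0.889). PSMB9 was at 3.77, 3.89 and 3.69 CPM and then at 2.72, 3.51 and 2.72 CPM (-0.35, adjusted p = 0.0513). PSMB10 was at 17.7, 19.4 and 19.5 CPM and then at 18.4, 13.96 and 13.4 CPM (-0.32, adjusted p = 0.00823), with siKMT9a replicate 1 inside the siControl range, and this call was lost without siKMT9a replicate 3 (-0.22) and after the length and GC adjustment, without or with a replicate block (-0.03 each).

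Other genes of the pathway, 35 symbols of which 34 were tested, moved in both directions: 10 rose and 15 fell, with a median of -0.08, beside 37.1% and 38.5% of all genes. Of the factors that complete the particle, POMP, the maturation factor of the core, was measured at 160.0, 165 and 162 CPM in siControl and at 118, 122 and 116 CPM in siKMT9a, with a log2 fold change of -0.45 ± 0.05 (SE, adjusted p = 4.44e-08). ADRM1, another ubiquitin receptor of the base, rose from 156, 166.5 and 169 CPM to 212, 201.5 and 178 CPM (0.27 ± 0.06, SE, adjusted p = 0.000433), in the opposite direction to the receptor PSMD4. The groups of POMP and of ADRM1 did not overlap. For ADRM1 the lowest siKMT9a sample (178 CPM) was close to the highest siControl sample (169 CPM).

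The transcription factors moved apart. NFE2L1 was measured at 344, 313 and 331 CPM in siControl and at 448, 441 and 452 CPM in siKMT9a, with a log2 fold change of 0.44 ± 0.05 (SE, adjusted p = 8.81e-08). NFE2L2 (NRF2), which drives antioxidant genes and can also act on proteasome genes, was measured at 287, 283 and 280.2 CPM in siControl and at 168.5, 169 and 183 CPM in siKMT9a, with a log2 fold change of -0.71 ± 0.05 (SE, adjusted p = 9.79e-11). The other 3 genes of that list fell: SYVN1 by 0.57, NGLY1, which encodes the enzyme that processes the NFE2L1 protein, by 0.43 and KEAP1 by 0.16 on the log2 scale. RNA levels say nothing of the processing or amount of these proteins.

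The largest change among all these genes was that of RAD23B, a shuttle factor that delivers ubiquitylated proteins to the proteasome. It was measured at 446, 467 and 449.5 CPM in siControl and at 119, 119 and 118 CPM in siKMT9a, with a log2 fold change of -1.93 ± 0.05 (SE, adjusted p = 3.89e-17). The gap between the groups was many times wider than the range within either group. In the list of 10 shuttle factors and unfoldase genes, 9 were tested. Of these 2 rose and 3 fell, beside 37.1% and 38.5% of all genes. UBQLN2 fell by 0.73 and UBQLN1 by 0.46. UFD1L had the largest rise, from 50.9, 51.3 and 52.9 CPM to 67.4, 63.0 and 63.6 CPM (0.32 ± 0.05, SE, adjusted p = 2.08e-05). VCP, the unfoldase itself, was at 0.02 and did not pass.

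Among 8 associated enzymes and scaffolds, 3 rose and 4 fell, beside 37.1% and 38.5% of all genes. TXNL1, a thioredoxin-like protein bound to the 19S particle, rose from 45.4, 46.4 and 47.7 CPM to 79.0, 78.4 and 74.5 CPM (0.73 ± 0.05, SE, adjusted p = 2.40e-10). ZFAND5, a zinc finger protein that activates the 26S proteasome, fell from 381, 388 and 379 CPM to 172, 195 and 183 CPM (-1.06 ± 0.05, SE, adjusted p = 4.38e-13). The ubiquitin-processing enzymes USP14 and UCHL5, which trim chains at the particle, rose by 0.28 and 0.20. PAAF1 (-0.99), AKIRIN2 (-0.33) and UBE3C (-0.20) were lower, and KIAA0368 (0.04) did not pass. Of the 6 genes of ubiquitin and its E1 enzymes, 2 rose and 2 fell, beside the same 37.1% and 38.5%. UBA1, the main ubiquitin-activating enzyme, rose from 228, 233 and 236 CPM to 344, 319.5 and 317 CPM (0.49 ± 0.05, SE, adjusted p = 1.94e-08), and UBB, a polyubiquitin gene, fell from 1454, 1599 and 1510.0 CPM to 1287, 1251 and 1182 CPM (-0.29 ± 0.05, SE, adjusted p = 4.37e-05). After the length and GC adjustment UBB was at -0.10, and with a replicate block added it no longer passed.

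Promoters were examined for the antioxidant response element core TGACNNNGC, the motif that NFE2L1 and NFE2L2 are known to bind. RefSeq promoters (GRCh38.p14, 250 bases before to 50 bases after the start, 1 start per symbol) were at hand for 39 of the 45 genes. Those of PSMA7, PSMB1, PSMB6, PSMB7, PSMD4 and PSMG3 were not. The genes with the largest rise (PSMA7) and the largest fall (PSMD4) are therefore missing from the counts below. The core motif was present on either strand in 12 of the 39 promoters (30.8%), and in 13.5% of the 27305 promoters of the table and 15.1% of those of tested genes. It was found in 5 of 11 promoters of genes called higher, 5 of 15 of genes called lower and 2 of 11 of genes that did not pass. The windows below carry it upstream of the start in genes of opposite direction, with the motif in capitals, 5′ to 3′ on the strand of the gene, first 3 genes that rose and then 3 that fell.
PSME4 (chr2:53970999-53971047, minus strand, motif at -34 on the reverse strand): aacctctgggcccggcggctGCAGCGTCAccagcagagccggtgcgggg
PSMG2 (chr18:12658679-12658727, plus strand, motif at -39): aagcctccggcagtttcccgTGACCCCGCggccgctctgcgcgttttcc
PSME2 (chr14:24146757-24146805, minus strand, motif at -175): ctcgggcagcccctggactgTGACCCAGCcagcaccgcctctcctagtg
PSMD9 (chr12:121888668-121888716, plus strand, motif at -102): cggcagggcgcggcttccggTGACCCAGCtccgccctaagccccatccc
PSMD3 (chr17:39980750-39980798, plus strand, motif at -37): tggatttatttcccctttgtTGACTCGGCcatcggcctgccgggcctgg
PSMG1 (chr21:39183606-39183654, minus strand, motif at -183): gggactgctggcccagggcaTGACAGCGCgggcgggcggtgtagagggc

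PSME2, which rose, and PSMD9, which fell, shared the same 9 letters TGACCCAGC. The CCAAT box, searched as CCAAT on both strands, was found in 43.6% of the 39 promoters, 35.6% of all promoters and 36.0% of those of tested genes, and the nuclear respiratory factor 1 site, searched as GCGCATGC on both strands, in 5.13%, 3.21% and 5.24%. No binding or chromatin data of these cells enter here, so that a match is a description of the letters alone.

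Some genes may share reads with neighbours or copies. The counting's strand setting is not given in the sources used here, and the deposited spans of PSMA3, PSMB7, PSMC2, PSMC5, PSMD1, PSMD6 and PSME1 each overlap another counted gene, so some reads of these pairs may be shared. Only spans from start to end were compared, and whether exons overlap was not examined. PSME2, which rose, has 6 named pseudogenes and PSMA6, which did not pass, has 4.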

How the data were processed

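RNA of 3 siControl and 3 siKMT9a samples of A549 cells was sequenced. Per the study's methods, the authors aligned reads to hg19 with STAR and counted them per RefSeq transcript with HOMER. The deposited values are estimated counts in steps of 0.5, and 36.4% of them were not whole. The deposited table also holds the authors' own comparison, as fold changes (ratio), p-values and adjusted p-values, and these columns were not used. All per-sample columns were mapped to samples by their names, and the number of unused ones was 0. Of 38767 rows, 1182 named no gene symbol or held no counts and were left out. Each symbol was represented by its most counted transcript, taking the 6 samples together, which makes totals smaller than those over all transcripts, whose reads overlap.

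Counts were rounded and tested with edgeR 4.0.16 in R 4.3.3 (TMM, filterByExpr, quasi-likelihood F test on group, 2-sided, Benjamini-Hochberg over 13877 genes, threshold 0.05). The biological coefficient of variation was 4.47%. SE is the log2 fold change divided by the root of F. CPM were computed from the rounded counts and TMM-scaled library sizes, and CPM per kilobase from the deposited transcript lengths. Pairs of samples within a group differed by a chi-square per gene of 1.35 to 5.19. The closest pairs were siKMT9a replicates 1 and 2 (1.35) and siControl replicates 2 and 3 (1.81). The other pairs within a group were at 4.025 or more. Whether samples shared a culture or other material was not tested. The 3 log2 ratios of immunoproteasome to constitutive genes had 0.5 added to each count. Deviations of samples with the same replicate number were correlated at -0.08, 0.02 and -0.08, and the numbers were not taken as pairs. The code was tested on simulated data.

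The genes, gene lists and motifs were chosen with earlier results of these data known. Per-sample values are given for the catalytic subunits, for the largest rise and fall among called genes of each functional group, for the activators, inhibitor and assembly chaperones, for PSMD4 and PSMD14, and in the pathway lists for the immunoproteasome genes, POMP, ADRM1, NFE2L1, NFE2L2 and the largest rise and fall among called genes of each list. PSMA5 and the other pathway genes named only by their fold change lie outside this rule and were chosen after their values were seen. Promoters came from RefSeq tables on GRCh38.p14, with the first start by position where a symbol had several. Alternatives were DESeq2 1.42.0, median-ratio (RLE) factors, library size alone, other filters, every transcript or their sum, offsets for length and GC content (splines with 5 degrees of freedom), a block for replicate number, and fits without 1 of the samples.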

Additional observations from a re-analysis of the deposited data

How the results depend on the processing

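Most alternatives moved few calls: with RLE factors, DESeq2, either filter, every transcript or summed transcripts, between 41 and 43 of the 43 genes kept their direction and their side of the threshold. Counts past the study's strict threshold were less steady than those at an adjusted p of 0.05, since it cuts through genes of like size. From 9 genes (5 higher, 4 lower), DESeq2 gave 16 (9 lower), no filter 16 (9 lower) and summed transcripts 3 (2 higher, 1 lower). Library size alone gave 8 (2 higher, 6 lower), and offsets for length and GC content gave 12 (8 higher, 4 lower). With each sample left out, they ranged from 3 to 12 in all, from 2 to 6 higher and from 1 to 6 lower, with 3 in all without siControl replicate 2 or siKMT9a replicate 2 and 4 without siControl replicate 3 or siKMT9a replicate 1. A replicate block gave 13 higher and 17 lower at an adjusted p of 0.05, but 3 past the strict threshold (2 higher, 1 lower), and the replicate block with offsets gave 15 (10 higher).

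Library size alone moved the median of the proteasome genes from -0.07 to -0.18, that of the beta ring to -0.22, the ATPases to -0.43, the non-ATPase base to -0.24, the lid to -0.19, activators and inhibitor to 0.11 and chaperones to -0.20, and turned the alpha ring to -0.018. It moved the log2 ratio of summed levels from 0.04 to -0.068 for the 20S core and from -0.18 to -0.28 for the 19S particle. It also turned PSMA2 (-0.015), PSMA6 (-0.018), PSMC1 (-0.048), PSMG4 (-0.088) and PSMB8 (-0.090), none of which had passed. Among genes that kept their call, it moved PSMA1 to 0.13, PSMD11 to 0.18, PSME3 to 0.11 and ADRM1 to 0.16, and PSMB4 to -0.29, PSMC6 to -0.29, PSMD1 to -0.24, PSMD3 to -0.28, PSMD6 to -0.22 and PSMG1 to -0.29.

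Offsets for length and GC content gave 22 genes higher and 10 lower, with or without the replicate block. Of all 13709 genes tested, 5313 were higher and 5217 lower with the offsets alone, and 5282 and 5187 with offsets and block. With offsets, values were as follows. The median of the proteasome genes turned to 0.12, the beta ring to 0.0080, the lid to 0.15 and chaperones to 0.17, while the alpha ring was at 0.30 and the ATPases at -0.13. With the block the values were 0.12, 0.0081, 0.16, 0.17, 0.30 and -0.13. The offsets turned PSMA3 (0.23), PSMA4 (0.20), PSMB2 (-0.013), PSMB3 (0.12), PSMB4 (0.0080), PSMB5 (0.075), PSMC6 (0.074), PSMD6 (0.12), PSMD12 (0.19), PSMD14 (0.24) and PSMG3 (0.17). With the block PSMB2 was at -0.014, PSMB4 at 0.0081, PSMC6 at 0.072 and the others at the same rounded values. Of the turned genes that the main test had called, PSMD6 went from lower to higher, and PSMB2, PSMB4 and PSMC6 no longer passed. The cause of these shifts was not tested.

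Leaving out 1 sample moved the median of the proteasome genes to between -0.10 and -0.041 (without siControl replicate 1), that of the beta ring to between -0.14 and -0.056 (without siKMT9a replicate 3), of the chaperones to between -0.12 and -0.044 (without siControl replicate 3) and of the lid to between -0.088 and -0.051 (without siControl replicate 1). It moved the log2 ratio of the 20S sums to between 0.014 and 0.076 (without siKMT9a replicate 1 and 3), the PSMB8 to PSMB5 log2 ratio to between 0.048 and 0.21 (without siKMT9a replicate 3 and 1), the median of the non-ATPase base to between -0.15 and -0.091 (without siControl replicate 1), the PSMB9 to PSMB6 log2 ratio to between -0.20 and 0.023 (without siKMT9a replicate 1) and that of PSMB10 to PSMB7 to between -0.14 and 0.039 (without siKMT9a replicate 2). It turned genes near 0 that had not passed: PSMA3 (-0.046 to 0.0041), PSMD12 (-0.039 to 0.014), PSMG4 (-0.0093 to 0.067) and PSMB8 (-0.022 to 0.070).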
